A study of Mus musculus with 9 samples.

Results

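A set of 10 genes of bile acid synthesis, transport and control was followed in liver RNA of NSG mice, a strain without mature T, B and natural killer cells. The genes are Cyp7a1, Cyp8b1, Cyp27a1, Cyp7b1, Baat, Slc10a1, Abcb11, Abcb4, Nr1h4 and Nr0b2, taken by symbol from a table of 61473 features, of which 55414 carry Ensembl identifiers. Each of the 10 symbols stood on 1 feature, and all 10 passed the filter on low values described below. The 9 libraries fall into 3 groups of 3, called MDA-MB-231 EV, MCF-10A EV and PBS. All mice are labelled WT in genotype and received injections through the tail vein over 5 weeks. The MDA-MB-231 EV group received extracellular vesicles (EVs) of MDA-MB-231, an established human breast cancer line. The MCF-10A EV group received EVs of MCF-10A, an established non-tumorigenic human breast epithelial line, and the PBS group received the saline vehicle. Each EV group thus stands for vesicles of 1 cell line. The title of the series concerns cholesterol homeostasis, and these genes act in the main route by which the liver disposes of cholesterol. Age, sex, vesicle dose and hour of collection were not stated in the labels. Whether each library is 1 mouse is not stated in the labels. The p-values below therefore cover the spread between these libraries, which may be technical.

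Hepatocytes make bile acids from cholesterol by a classic route that starts with Cyp7a1 in the endoplasmic reticulum and an alternative route that starts with Cyp27a1 in mitochondria. The products are joined to taurine or glycine, pumped into bile by Abcb11, kept in mixed micelles with phospholipid that Abcb4 moves into bile, and taken back from portal blood by Slc10a1. Bile acids bind the nuclear receptor FXR, encoded by Nr1h4, which induces Nr0b2 in the liver and Fgf15 in the gut. Both of these dampen transcription of Cyp7a1.

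The values are TPM (transcript abundances) as deposited, a level already scaled for transcript length and library total. Read depth cannot be recovered from TPM and is unknown here. All 9 hepatocyte markers (Alb, Apoa1, Ttr, Serpina1a, Tat, Cyp3a11, Apob, Asgr1 and Fah) were detected in all 9 libraries. Their summed level was 40290 to 101883 TPM in MDA-MB-231 EV, 47032 to 68873 TPM in MCF-10A EV and 39804 to 95789 TPM in PBS libraries. MDA-MB-231 EV replicate 3 and PBS replicate 1 stood apart from the rest. They had the lowest hepatocyte sums, 40290 and 39804 TPM, with the next library at 47032 TPM, and the highest Nr1h4. Alb, Ttr, Serpina1a, Cyp3a11 and Asgr1 were lowest in these 2 libraries, while Fah was highest in them, at 945 and 733 TPM. Apoa1, Tat and Apob were neither in both, though in MDA-MB-231 EV replicate 3 Tat was highest, at 816 TPM, and Apob lowest, at 384 TPM. The 37 mitochondrially encoded genes held 11.7% of the TPM of MDA-MB-231 EV replicate 3 and 26.3% of that of PBS replicate 1. In the other 7 libraries that share was 4.96% to 12.1%, so it set only PBS replicate 1 apart. PBS replicate 2 held fat cell transcripts, with Cfd at 285 TPM and Fabp4 at 162 TPM, against at most 5.30 and 18.1 TPM in the other 8 libraries. MCF-10A EV replicate 1 stood apart in another way, with 10 acute phase proteins summing to 112658 TPM, against 5000 to 22081 TPM in the other 8 libraries. All loci assembled from the reads are listed at 0 in the MCF-10A EV columns, whose totals are 934986 to 979351 TPM rather than 1000000. The MCF-10A EV group and its processing cannot be told apart.

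Promoters of 7 of the 10 genes were found in the RefSeq table of GRCm38.p6, which is not the build of the deposited values. Promoters of 3 genes are printed because they hold motifs of nuclear receptors known to act in this feedback circuit. Each run holds the 250 bases before the gene's start, and capitals mark matches to the motifs searched on both strands. Those motifs were the nuclear receptor half-site AGGTCA, the inverted repeat AGGNCANTGNCCT, which has the layout FXR is known to bind, the HNF4 type repeat CAAAGTCCA, the LRH-1 core TCAAGG and the TATA box TATAAA. Their letters were chosen after the sequences had been seen.
Abcb11 promoter, chr2:69342617-69342866, minus strand: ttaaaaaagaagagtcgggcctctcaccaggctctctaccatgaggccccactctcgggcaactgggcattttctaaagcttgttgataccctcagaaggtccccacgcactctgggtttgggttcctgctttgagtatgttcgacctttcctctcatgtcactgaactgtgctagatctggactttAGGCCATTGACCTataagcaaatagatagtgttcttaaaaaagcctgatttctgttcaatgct
Nr0b2 promoter, chr4:133553126-133553375, plus strand: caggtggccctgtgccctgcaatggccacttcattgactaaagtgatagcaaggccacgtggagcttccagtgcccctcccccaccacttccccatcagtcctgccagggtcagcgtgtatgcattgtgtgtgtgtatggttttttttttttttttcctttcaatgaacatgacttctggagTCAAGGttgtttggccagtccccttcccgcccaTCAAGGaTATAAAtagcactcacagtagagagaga
Cyp8b1 promoter, chr9:121916306-121916555, minus strand: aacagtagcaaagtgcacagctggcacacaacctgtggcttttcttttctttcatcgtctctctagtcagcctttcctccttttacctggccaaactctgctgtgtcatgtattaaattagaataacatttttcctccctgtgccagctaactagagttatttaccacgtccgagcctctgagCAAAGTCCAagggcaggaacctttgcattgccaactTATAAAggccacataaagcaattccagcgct
In Abcb11 the inverted repeat lies at -63 to -51 relative to the start, and its last 6 bases are also the half-site on the other strand. That repeat occurs in 0.0852% of 32851 RefSeq promoters of the same length, and the half-site in 14.0%. Nr0b2 holds the LRH-1 core at -68 to -63 and at -35 to -30, and a TATA box at -28 to -23. Cyp8b1 holds the HNF4 type repeat at -67 to -59 and a TATA box at -31 to -26. The LRH-1 core occurs in 12.5%, the TATA box in 12.4% and the HNF4 type repeat in 0.384% of those promoters. Of the promoters not printed, 1 of 2 for Slc10a1 held the half-site at -87 to -82 and the other the TATA box at -128 to -123, and Nr1h4 held the half-site at -214 to -209. Those of Cyp27a1 and Abcb4 held none of the 5 motifs. These matches are letters in a window and no measure of binding.

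None of the 10 genes passed the threshold in any of the 3 comparisons. The test was limma on log2(TPM + 1) over 12860 Ensembl features with a mean of at least 1 TPM, with Benjamini-Hochberg adjustment and a threshold of 0.05. Between MDA-MB-231 EV and PBS, 0 of 10 members and 0% of all tested genes passed. Between MDA-MB-231 EV and MCF-10A EV, 0 of 10 members and 0.218% of tested genes passed, 28 in all. With the replicate number as a block the count was 15 over the 3 groups and 12 in a fit of those groups alone, with 0 members in each. Between MCF-10A EV and PBS, 0 of 10 members and 0.194% of tested genes passed, 25 in all. At an unadjusted p under 0.05, limma gave 1, 2 and 1 members and 199, 492 and 411 tested genes in the same order of comparisons. With MDA-MB-231 EV replicate 3 and PBS replicate 1 left out, members past the threshold were again 0, 0 and 0, as they were without PBS replicate 2 and without MCF-10A EV replicate 1. A fold change below is on the log2(TPM + 1) scale, with its SE, and understates the change of low genes. In whole liver, fewer cells of a type and less RNA per cell cannot be told apart.

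Cyp7a1, the rate-limiting enzyme of the classic route, spanned its whole range inside the MDA-MB-231 EV group. It stood at 21.5, 61.5 and 8.72 TPM in MDA-MB-231 EV, at 15.4, 30.3 and 30.3 TPM in MCF-10A EV, and at 14.2, 23.0 and 40.0 TPM in PBS libraries. MDA-MB-231 EV replicate 2 was the highest and replicate 3 the lowest of the 9, so the groups overlap throughout. Mean levels were 30.5 ± 27.5, 25.3 ± 8.57 and 25.7 ± 13.1 TPM in the MDA-MB-231 EV, MCF-10A EV and PBS groups (SD, n = 3 each). The log2 change was -0.05 ± 0.66 for MDA-MB-231 EV against PBS, with a 95% interval of -1.50 to 1.41. That interval reaches past 1 log2 unit in either direction, so a change of that size was not detectable here.

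Cyp8b1, the sterol hydroxylase that steers synthesis toward cholic acid, varied 11.9-fold between libraries. Its levels were 28.4, 33.0 and 2.76 TPM in MDA-MB-231 EV, 4.94, 23.7 and 8.04 TPM in MCF-10A EV, and 5.25, 22.6 and 19.6 TPM in PBS livers. Each group held at least 1 library below 10 TPM and 1 above 19 TPM. The log2 change was 0.10 ± 0.89 for MDA-MB-231 EV against PBS and 0.50 ± 0.89 against MCF-10A EV. With MDA-MB-231 EV replicate 3 and PBS replicate 1 left out these were 0.52 ± 0.62 and 1.53 ± 0.57 (limma adjusted p = 0.969 and 0.598).

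Cyp27a1, the mitochondrial enzyme that oxidises the sterol side chain and opens the alternative route, had the highest mean level of the 5 synthesis genes among the members. It stood at 251, 265 and 407 TPM in MDA-MB-231 EV libraries, 165, 128 and 149 TPM in MCF-10A EV libraries, and 257, 172 and 116 TPM in PBS libraries. All MDA-MB-231 EV libraries lay above all MCF-10A EV libraries, while PBS replicate 1 lay inside the MDA-MB-231 EV range. Means were 308 ± 86.5, 148 ± 18.5 and 181 ± 71.1 TPM (MDA-MB-231 EV, MCF-10A EV and PBS, SD, n = 3 each). The log2 change was 1.03 ± 0.42 for MDA-MB-231 EV relative to MCF-10A EV (limma adjusted p = 1) and 0.80 ± 0.42 against PBS (limma adjusted p = 1). Neither passed the test. Without MDA-MB-231 EV replicate 3 and PBS replicate 1 they were 0.81 and 0.87.

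Cyp7b1 encodes the oxysterol hydroxylase that follows Cyp27a1 in the alternative route. Its levels were 15.3, 31.4 and 14.6 TPM in MDA-MB-231 EV, 7.58, 16.0 and 15.4 TPM in MCF-10A EV, and 21.3, 25.8 and 29.99 TPM in PBS livers. The highest MCF-10A EV library lay below the lowest PBS library, while 2 MDA-MB-231 EV libraries lay within the MCF-10A EV range and replicate 2 lay above every PBS library. The log2 change for MCF-10A EV against PBS was -0.98 ± 0.44, with a 95% interval of -1.95 to -0.02 (limma adjusted p = 1). With array weights, which let limma weigh each library by its fit, it was -0.90 ± 0.21 (limma adjusted p = 0.0357), the only alternative in which a member passed. In that fit 548 genes, 4.26% of those tested, passed. The other alternatives gave limma adjusted p-values between 0.998 and 1. MCF-10A EV replicate 1, the lowest library, also had the acute phase sum of 112658 TPM, and without it the change was -0.66 (limma adjusted p = 1). An snRNA gene, Gm23686, overlaps Cyp7b1 on the same strand in the GENCODE M21 annotation, and how its reads were counted was not tested.

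Baat, which joins bile acids to taurine or glycine, had the narrowest range of the 10 genes, 2.18-fold. It stood at 120, 80.5 and 165 TPM in MDA-MB-231 EV, 75.7, 75.6 and 100 TPM in MCF-10A EV, and 147, 76.7 and 97.3 TPM in PBS libraries. The groups overlap, and the highest value in the MDA-MB-231 EV group and in the PBS group came from the library of that group that stands apart. The log2 change was 0.18 ± 0.42 for MDA-MB-231 EV against PBS and 0.49 ± 0.42 against MCF-10A EV.

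**Figure D1:**
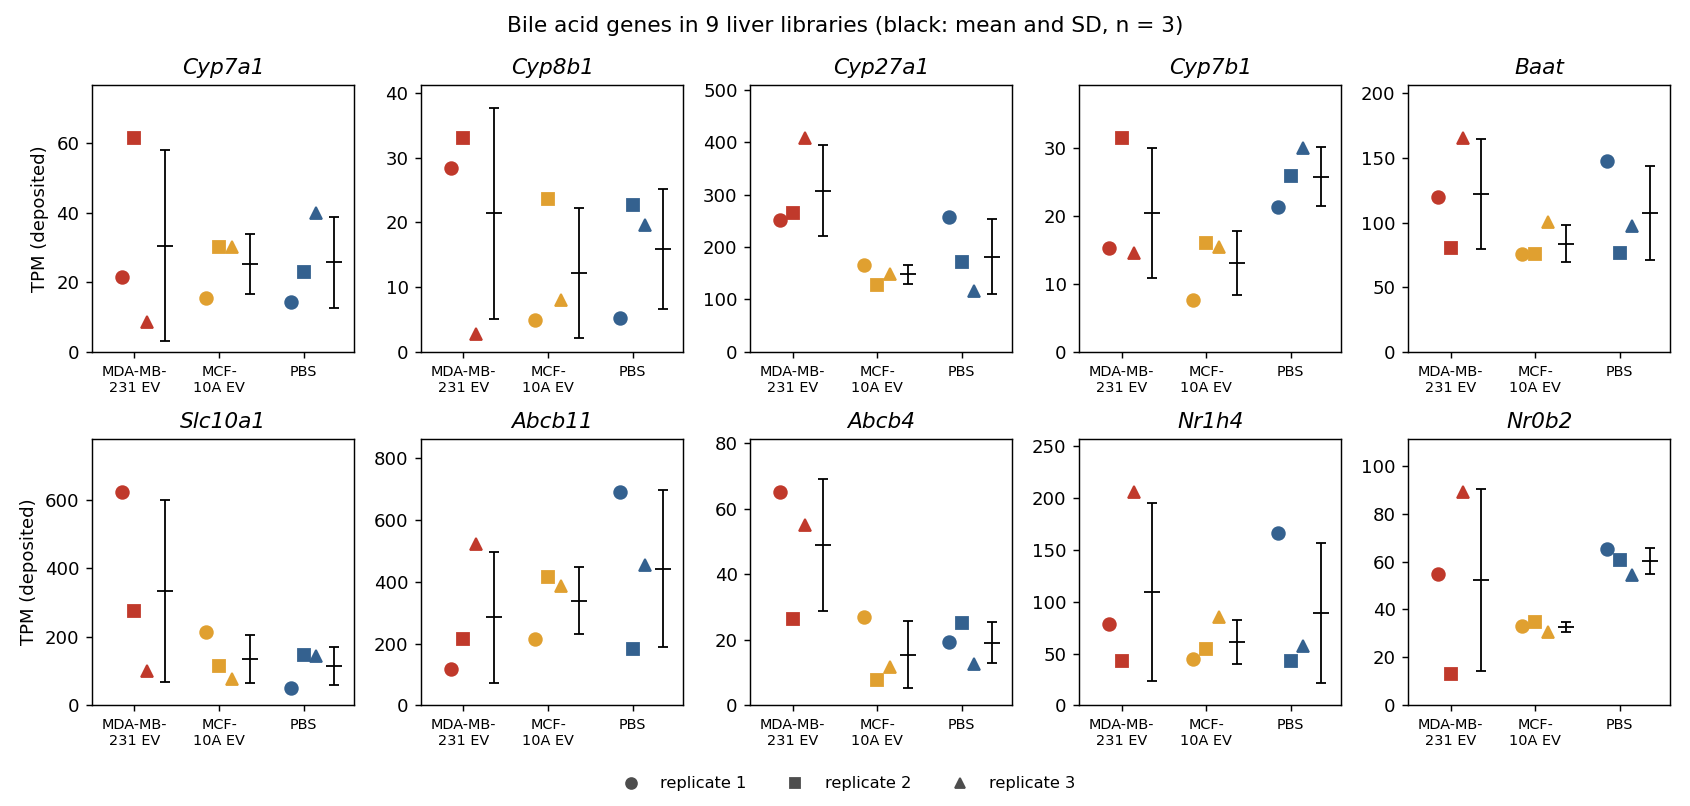
Levels of the 10 bile acid genes in TPM (vertical axes, from 0) in MDA-MB-231 EV, MCF-10A EV and PBS libraries; marker shape gives the replicate and black bars the mean and SD (n = 3). Cyp27a1 in MDA-MB-231 EV lies above MCF-10A EV in all libraries, Abcb4 in MDA-MB-231 EV lies above PBS, and Cyp7b1 and Nr0b2 in MCF-10A EV lie below PBS, while the other groups mostly overlap.

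Slc10a1 encodes NTCP, the sodium-dependent carrier that takes conjugated bile acids from portal blood into hepatocytes. It had the widest range of the 10 genes, 12.0-fold. Levels were 623, 277 and 100 TPM in MDA-MB-231 EV, 214, 116 and 77.8 TPM in MCF-10A EV, and 51.7, 148 and 144 TPM in PBS livers. MDA-MB-231 EV replicate 1 stood at more than 2 times the next library, and replicate 3 lay within the PBS range. The log2 change for MDA-MB-231 EV was 1.31 ± 0.70 against PBS (limma adjusted p = 1) and 1.05 ± 0.70 against MCF-10A EV. Without MDA-MB-231 EV replicate 3 and PBS replicate 1 these were 1.50 ± 0.56 (limma adjusted p = 0.969) and 1.73 ± 0.51 (limma adjusted p = 0.447), again not past the threshold. Leaving out MDA-MB-231 EV replicate 1 instead lowered them to 0.68 and 0.42, and leaving out replicate 3 alone gave 1.995 and 1.73.

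Abcb11, the bile salt export pump whose promoter carries the inverted repeat printed above, had the highest mean level of the 10 genes. It stood at 117, 214 and 523 TPM in MDA-MB-231 EV, 216, 416 and 385 TPM in MCF-10A EV, and 690, 182 and 454 TPM in PBS libraries. Its lowest library, MDA-MB-231 EV replicate 1, was the highest for Slc10a1, and its highest, PBS replicate 1, was the lowest for Slc10a1. The log2 change was -0.70 ± 0.65 for MDA-MB-231 EV against PBS and -0.46 ± 0.65 against MCF-10A EV. These were -0.20 and 0.039 without MDA-MB-231 EV replicate 1, and -1.27 and -1.03 without replicate 3, so single libraries set their size. An antisense gene, Gm13613, and a pseudogene, Gm13614, overlap Abcb11 on the other strand, and the sources used here do not say whether counting used strand, so reads of these genes cannot be told apart from those of Abcb11.

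Abcb4 encodes the floppase that moves phosphatidylcholine into bile and so protects the duct lining from bile salts. It stood at 65.2, 26.5 and 55.1 TPM in MDA-MB-231 EV, 27.1, 7.67 and 11.8 TPM in MCF-10A EV, and 19.5, 25.2 and 12.8 TPM in PBS libraries. All MDA-MB-231 EV libraries lay above all PBS libraries, with 26.5 TPM beside 25.2 TPM at the closest pair, and MCF-10A EV replicate 1 lay just above the lowest MDA-MB-231 EV library. Means were 48.9 ± 20.0, 15.5 ± 10.2 and 19.2 ± 6.23 TPM (MDA-MB-231 EV, MCF-10A EV and PBS, SD, n = 3 each). The log2 change for MDA-MB-231 EV was 1.26 ± 0.53 against PBS (limma adjusted p = 1) and 1.68 ± 0.53 against MCF-10A EV (limma adjusted p = 0.857). The second has the smallest p of the 30 member results. Over the alternatives the changes ranged between 1.01 and 1.65 against PBS and between 1.30 and 2.15 against MCF-10A EV, with limma adjusted p-values from 0.641 to 1 and from 0.254 to 1. A pseudogene, Gm17936, overlaps Abcb4 on the same strand, and its part in the values was not tested.

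Nr1h4 encodes FXR, the bile acid receptor. Its levels were 78.9, 42.9 and 206 TPM in MDA-MB-231 EV, 44.6, 54.9 and 85.3 TPM in MCF-10A EV, and 166, 42.7 and 57.2 TPM in PBS livers. MDA-MB-231 EV replicate 3 and PBS replicate 1 stood well above the other 7 libraries, and the groups overlap. The log2 change was 0.26 ± 0.65 for MDA-MB-231 EV against PBS and 0.57 ± 0.65 against MCF-10A EV. Without those 2 libraries the values were 0.23 and -0.03. High Nr1h4 is itself one of the traits by which they stand apart, so these values are no independent check.

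Nr0b2 encodes SHP, the receptor without a DNA-binding domain that FXR induces and that represses Cyp7a1 and Cyp8b1. It stood at 54.8, 13.2 and 89.0 TPM in MDA-MB-231 EV, 32.9, 34.6 and 30.7 TPM in MCF-10A EV, and 65.2, 60.5 and 54.5 TPM in PBS libraries. The MCF-10A EV and PBS groups were tight, with coefficients of variation of 5.98% in MCF-10A EV and 8.93% in PBS, and did not overlap, while MDA-MB-231 EV had 72.5% and held both the highest and the lowest of the 9 values. The log2 change for MCF-10A EV against PBS was -0.85 ± 0.59 (limma adjusted p = 1), in a fit that shares 1 estimate of spread over the 3 groups. With only the MCF-10A EV and PBS libraries in the fit, the limma adjusted p was 0.954, and over all alternatives it ranged between 0.160 and 1.

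By mean level over the 9 libraries the order was Abcb11 (355 ± 187 TPM), Cyp27a1 (212 ± 92.5), Slc10a1 (195 ± 175), Baat (104 ± 33.2), Nr1h4 (86.5 ± 59.2), Nr0b2 (48.4 ± 22.7), Abcb4 (27.9 ± 19.7), Cyp7a1 (27.2 ± 16.0), Cyp7b1 (19.7 ± 7.96) and Cyp8b1 (16.5 ± 11.4 TPM, SD). Every neighbouring pair in that order lay within 1 SD of the more variable gene of the pair. For 9 of the 10 genes the highest library was a MDA-MB-231 EV library, and for the other, Abcb11, it was PBS replicate 1. MDA-MB-231 EV replicate 3 was the highest library for Cyp27a1, Baat, Nr1h4 and Nr0b2 and the lowest for Cyp7a1 and Cyp8b1. MDA-MB-231 EV replicate 2 was the highest for Cyp7a1, Cyp8b1 and Cyp7b1 and the lowest for Nr0b2. No MCF-10A EV library was the highest for any of the 10. How often each group holds the highest library over all tested genes was not computed, so these counts have no background. All tested genes also leaned toward MDA-MB-231 EV, with 69.7% above 0 against PBS and 65.0% against MCF-10A EV. The summed level of the 10 genes was 1375, 1045 and 1571 TPM in MDA-MB-231 EV, 804, 903 and 894 TPM in MCF-10A EV, and 1438, 778 and 1025 TPM in PBS libraries, so the MDA-MB-231 EV libraries lay above all MCF-10A EV libraries and overlapped PBS.

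**Figure D2:**
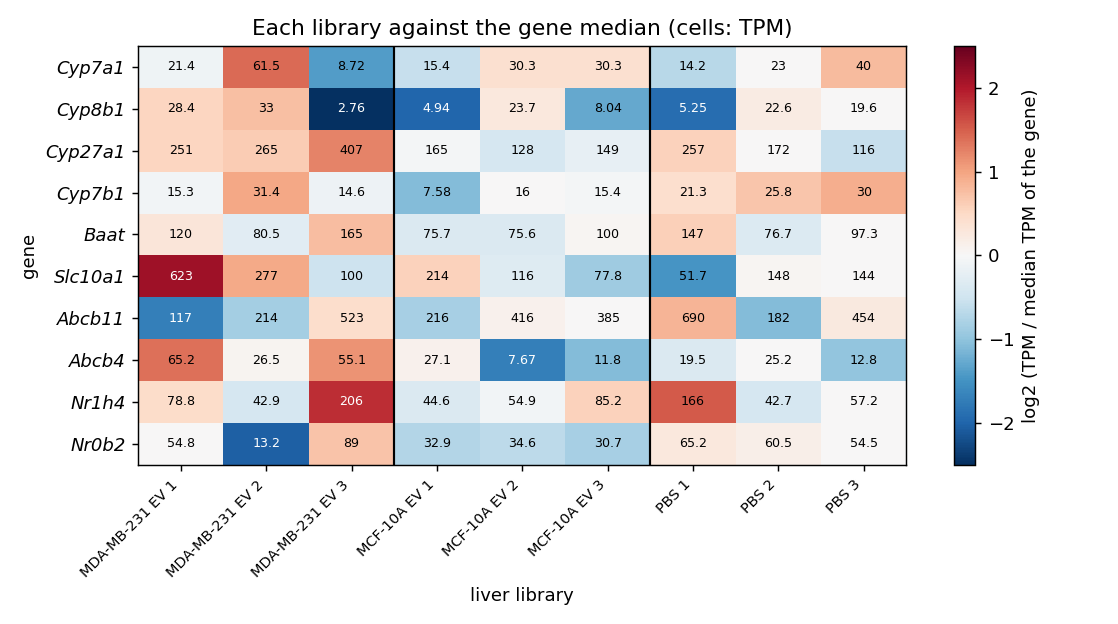
Log2 of TPM over the gene's median across the 9 libraries (colour), with the TPM in each cell; rows are the 10 genes and columns the libraries of MDA-MB-231 EV, MCF-10A EV and PBS. MDA-MB-231 EV replicate 3 is highest for 4 genes and lowest for 2, and replicate 2 is highest for 3 others.

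Groups that do not overlap were counted beside the same count over all genes. Between MDA-MB-231 EV and PBS this held for 1 of 10 members (Abcb4) and for 6.03% of tested genes. Between MDA-MB-231 EV and MCF-10A EV it held for 1 member (Cyp27a1) and 6.53% of tested genes, and between MCF-10A EV and PBS for 2 members (Cyp7b1 and Nr0b2) and 7.69%. With 10 genes, counts of 1 and 2 are near those shares. The median log2 change of the members was 0.14 for MDA-MB-231 EV against PBS, where all tested genes had a median of 0.21, and 6 of 10 members and 69.7% of genes were above 0. For MDA-MB-231 EV relative to MCF-10A EV the medians were 0.54 over members and 0.17 over all genes, with 8 of 10 members and 65.0% of genes above 0. For MCF-10A EV against PBS they were -0.31 and 0.07, with 2 of 10 members and 56.8% of genes above 0. The 3 comparisons share libraries in pairs, so their signs are not independent of each other.

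**Figure D3:**
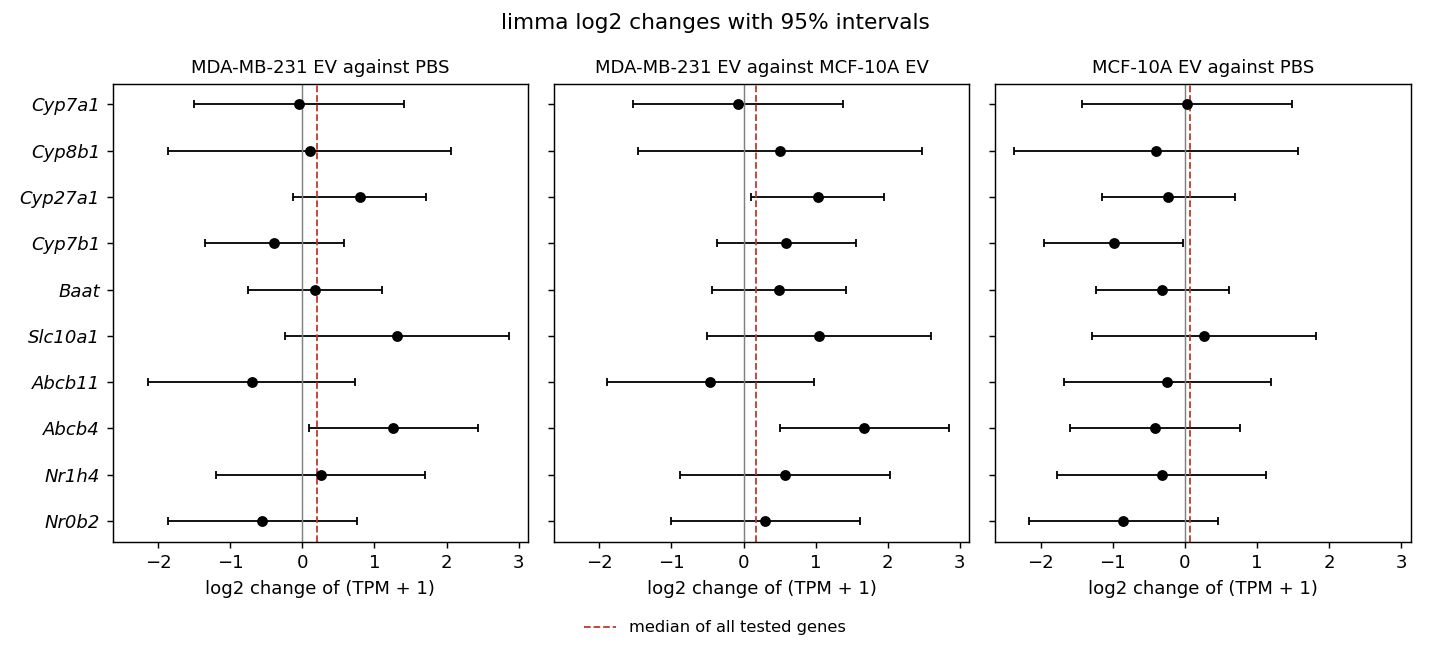
Log2 change of TPM + 1 with its 95% interval (horizontal axis) for the 10 genes in MDA-MB-231 EV against PBS, MDA-MB-231 EV relative to MCF-10A EV and MCF-10A EV against PBS, with the median of all tested genes dashed at 0.21, 0.17 and 0.07. The interval lies off 0 for Abcb4 (0.09 to 2.44) in the first, for Cyp27a1 (0.10 to 1.95) and Abcb4 (0.50 to 2.85) in the second and for Cyp7b1 (-1.95 to -0.02) in the third, before any adjustment for the number of genes.

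Ratios within a library do not depend on its TPM total. The ratio of Cyp7b1 to Cyp7a1, alternative over classic hydroxylase, was 0.715, 0.511 and 1.67 in MDA-MB-231 EV, 0.491, 0.528 and 0.510 in MCF-10A EV, and 1.50, 1.12 and 0.750 in PBS libraries. The MCF-10A EV values were close to each other and all below PBS, a log2 difference of -1.08 with an exact two-sided permutation p of 0.1, the smallest that 3 against 3 allows (adjusted p = 0.831 over 18 ratio tests). The ratio of Slc10a1 to Abcb11, uptake over export, was 5.31, 1.29 and 0.192 in MDA-MB-231 EV, 0.994, 0.278 and 0.202 in MCF-10A EV, and 0.0749, 0.817 and 0.316 in PBS libraries. It spanned the widest range of the 6 ratios, and its log2 difference of 2.03 for MDA-MB-231 EV against PBS had an exact permutation p of 0.4. The ratio of Abcb4 to Abcb11, phospholipid over bile salt export, was 0.556, 0.124 and 0.106 in MDA-MB-231 EV, 0.126, 0.0184 and 0.0308 in MCF-10A EV, and 0.0282, 0.139 and 0.0281 in PBS libraries. Its log2 difference for MDA-MB-231 EV was 2.01 against PBS and 2.22 against MCF-10A EV, each with an exact permutation p of 0.3. In the 3 same-numbered MDA-MB-231 EV and MCF-10A EV pairs this ratio was higher in MDA-MB-231 EV 3 times, as was the ratio of Cyp27a1 to Cyp7a1. So were the genes Abcb4, Slc10a1, Cyp27a1 and Baat themselves. The share of all tested genes higher in all 3 pairs was not computed. The exact paired p was 0.25 for each of these ratios, the smallest that 3 pairs allow. The ratio of Nr0b2 to Nr1h4, target over receptor, was 0.694, 0.309 and 0.433 in MDA-MB-231 EV, 0.739, 0.630 and 0.360 in MCF-10A EV, and 0.392, 1.42 and 0.952 in PBS libraries. It was lower in MDA-MB-231 EV than in PBS by a log2 difference of -0.84 (exact permutation p = 0.3), with overlapping groups.

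Slc10a1 and Abcb11 ran opposite to each other across libraries. Over the 9 libraries Pearson's r of log2(TPM + 1) was -0.89 (exact permutation p = 0.00118, adjusted p = 0.0266 over 45 pairs) and Spearman's rho was -0.83 (exact permutation p = 0.00827, adjusted p = 0.186). On values centred on the group means r was -0.89, and within the 6 MDA-MB-231 EV and PBS libraries r was -0.90 (exact permutation p = 0.0111). Without the 2 libraries farthest from the median of Slc10a1, MDA-MB-231 EV replicate 1 and PBS replicate 1, r was -0.70. Without the 2 libraries that stand apart it was -0.83 (exact permutation p = 0.0196, adjusted p = 0.202), so the relation kept its sign but passed the adjusted threshold only with all 9 libraries.

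Cyp7a1 and Nr0b2 had r = -0.75 (exact permutation p = 0.0192, adjusted p = 0.173) and rho = -0.74 (exact permutation p = 0.0282, adjusted p = 0.337) over the 9 libraries. The extremes were MDA-MB-231 EV replicate 2, with the highest Cyp7a1 and the lowest Nr0b2, and replicate 3, with the lowest Cyp7a1 and the highest Nr0b2. They are also the libraries farthest from the median of Cyp7a1, and without them r was -0.19. Leaving out the extremes of a gene narrows its range and by itself shrinks r. This value therefore cannot show how far the relation rests on them. On values centred on the group means r was -0.85, and within the 6 MDA-MB-231 EV and PBS libraries r was -0.84 (exact permutation p = 0.00417) and rho -0.94 (exact permutation p = 0.0167). Both of these sets hold the 2 extreme libraries, so neither result is independent of them, and these p-values are not adjusted over the 45 pairs. Without the 2 libraries that stand apart r was -0.58 (exact permutation p = 0.177). Cyp7a1 and Cyp8b1 had r = 0.80 (exact permutation p = 0.00941, adjusted p = 0.136) and rho = 0.71 (exact permutation p = 0.0375, adjusted p = 0.337), and without MDA-MB-231 EV replicates 2 and 3 r was 0.59. Nr1h4 fell into separate clusters, 206 and 166 TPM in MDA-MB-231 EV replicate 3 and PBS replicate 1 and 42.7 to 85.3 TPM elsewhere. Over all 9 libraries Baat and Nr1h4 had r = 0.96 (exact permutation p = 0.000325, adjusted p = 0.0146) and rho = 0.83 (adjusted p = 0.186). With Slc10a1 and Abcb11 they were the 2 of 45 pairs past the adjusted threshold by Pearson's r, and 0 passed by Spearman's rho. Cyp7a1 and Nr1h4 had r = -0.69 (exact permutation p = 0.041, adjusted p = 0.250) over the 9. Over the 7 libraries without the upper cluster, which narrows the range of Nr1h4, Baat and Nr1h4 had r = 0.84 (exact permutation p = 0.0222, adjusted p = 0.202) and rho = 0.64 (exact permutation p = 0.139). Cyp7a1 and Nr1h4 had r = -0.10 (exact permutation p = 0.826) and rho = -0.02 over those 7. No batch is given in the labels, and 3 MCF-10A EV libraries are too few for a value of their own.

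**Figure D4:**
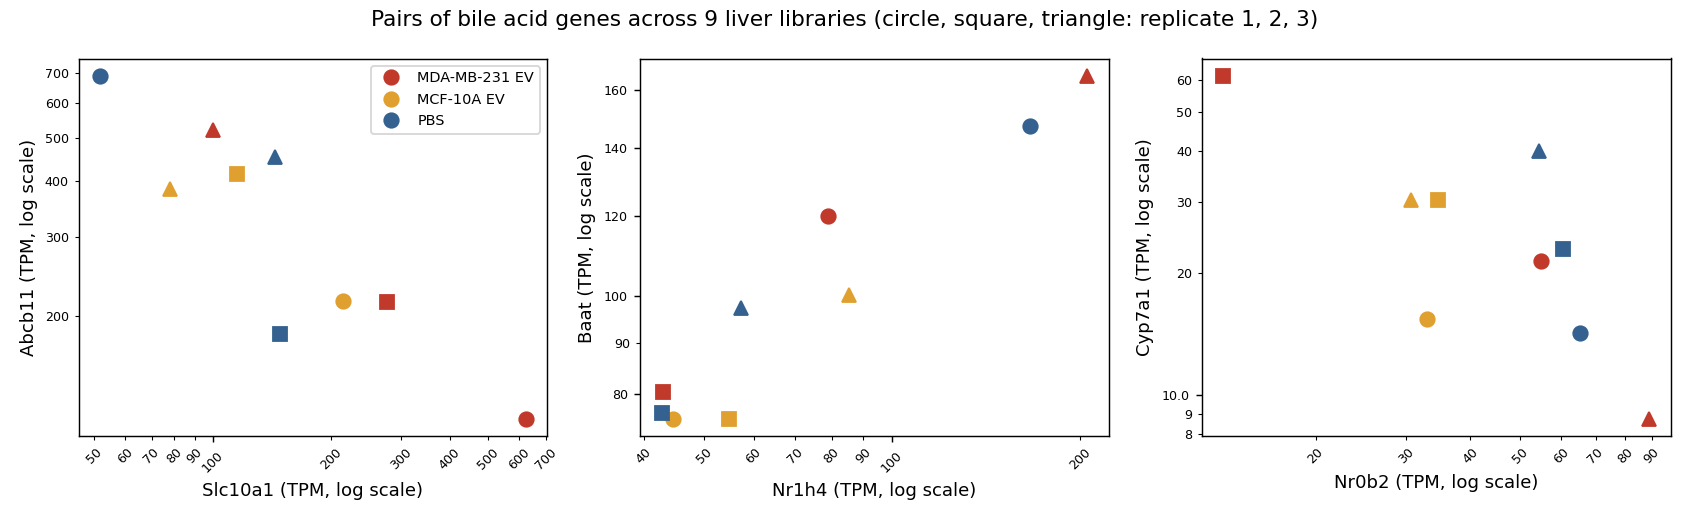
TPM of pairs of genes on log axes in the 9 libraries, Abcb11 against Slc10a1, Baat against Nr1h4 and Cyp7a1 against Nr0b2; colour gives the group and shape the replicate. The first pair slopes downward in all groups together, the second has MDA-MB-231 EV replicate 3 and PBS replicate 1 far to the right, and the third is spread out by MDA-MB-231 EV replicates 2 and 3.

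The wider pathway likewise held no gene past the threshold. Of 15 other genes of synthesis and conjugation 14 were tested, of 17 other transport genes 17, of 15 other regulators 12 and of 6 FGF15/19 signalling genes 5, and 0 of them passed in any comparison by limma. At an unadjusted p under 0.05, limma gave 1, 0, 0 and 1 genes of those lists for MDA-MB-231 EV against PBS 1 of each list for MDA-MB-231 EV relative to MCF-10A EV, and 0 of each list for MCF-10A EV against PBS. Fgf15, the gut hormone that represses Cyp7a1, is listed at 0 in all 9 libraries. For MDA-MB-231 EV against PBS, 12 of 14 synthesis, 12 of 17 transport, 12 of 12 regulator and 5 of 5 FGF15/19 genes were above 0. Of all tested genes 69.7% were above 0 there. The medians were 0.45, 0.40, 0.49 and 0.81 beside 0.21 over all genes. For MDA-MB-231 EV relative to MCF-10A EV the counts were 13, 13, 12 and 5 beside 65.0% of all genes. The medians were 0.44, 0.50, 0.47 and 0.37 beside 0.17. For MCF-10A EV against PBS the counts were 9, 8, 6 and 4 beside 56.8%, and the medians 0.08, -0.01, 0.00 and 0.23 beside 0.07. Groups did not overlap for 1 gene of each list in MDA-MB-231 EV against PBS, beside 6.03% of tested genes. This held for 1, 0, 0 and 0 genes relative to MCF-10A EV, beside 6.53%. In MCF-10A EV against PBS it held for 3, 2, 1 and 0 genes, beside 7.69%.

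Among the other synthesis genes, Slc27a2, an acyl-CoA synthetase of very long chain and bile acid intermediates, had 354 ± 230 TPM in MDA-MB-231 EV, 134 ± 90.6 in MCF-10A EV and 111 ± 30.3 in PBS (SD, n = 3 each). Its log2 change against PBS was 1.51 ± 0.57 (limma adjusted p = 1), and those groups did not overlap. Slc27a5, the bile acid-CoA ligase that acts before Baat, had a log2 change of 1.11 ± 0.64 for MDA-MB-231 EV against PBS, which was 0.56 without MDA-MB-231 EV replicate 1, 0.66 without PBS replicate 1 and 1.82 without MDA-MB-231 EV replicate 3. Cyp39a1, an oxysterol hydroxylase, had 0.70 ± 0.45 for MDA-MB-231 EV relative to MCF-10A EV, and 0.38 without MDA-MB-231 EV replicate 3. Star, which carries cholesterol into mitochondria, had a log2 change of -1.22 ± 0.64 for MCF-10A EV against PBS without overlap, but its PBS levels were 1.13, 9.42 and 1.08 TPM. The high value came from PBS replicate 2, the library with fat cell transcripts, and without it Star fell below the filter. Hsd3b7, which acts after the first hydroxylation, had 0.73 ± 0.60 for MCF-10A EV against PBS without overlap.

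Among transport genes, Abcc3, a basolateral exporter of bile acids and conjugates, had 141 ± 27.2 TPM in MDA-MB-231 EV, 72.7 ± 47.2 in MCF-10A EV and 69.9 ± 21.3 in PBS (SD, n = 3 each). Its log2 change against PBS was 1.03 ± 0.49 (limma adjusted p = 1), without overlap. Ephx1, microsomal epoxide hydrolase, had 1.00 ± 0.65 against PBS, with a range of 0.51 to 1.59 when single libraries were left out, and Abcg8, a subunit of the biliary cholesterol exporter, had 0.93 ± 0.51 for MDA-MB-231 EV relative to MCF-10A EV, and 0.38 without MDA-MB-231 EV replicate 1. Atp8b1, a canalicular phospholipid flippase, and Slc51b, a subunit of the basolateral bile acid exporter, had 1.11 ± 0.70 and 1.03 ± 0.77 for MCF-10A EV against PBS. Both had means below 5 TPM in all 3 groups, and the groups did not overlap for Atp8b1 but did for Slc51b. Slc51b stood at 11.96, 0.98 and 0.42 TPM in MCF-10A EV libraries, and without replicate 1, the library with the acute phase sum of 112658 TPM, its change was 0.05. Atp8b1 was 0.67 without MCF-10A EV replicate 3.

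Among regulators, Ppara, the fatty acid receptor, had 57.3 ± 39.5 TPM in MDA-MB-231 EV, 10.6 ± 1.41 in MCF-10A EV and 24.0 ± 11.2 in PBS (SD, n = 3 each). Its log2 change was 1.92 ± 0.68 for MDA-MB-231 EV relative to MCF-10A EV (limma adjusted p = 1), with overlap. It was -1.01 ± 0.68 for MCF-10A EV against PBS, without overlap. Nr1i3, the xenobiotic receptor CAR, had 1.68 ± 0.79 and -0.80 ± 0.79 in the same 2 comparisons. Its MDA-MB-231 EV levels were 303, 97.8 and 1081 TPM, and without replicate 3 the first change was 0.80. The second was -0.38 without PBS replicate 1. Foxa2, a hepatic transcription factor, had 0.84 ± 0.50 for MDA-MB-231 EV against PBS, and 0.36 without PBS replicate 2. Klb, the co-receptor through which FGF15 acts on hepatocytes, had 11.3 ± 6.40 TPM in MDA-MB-231 EV, 4.84 ± 1.60 in MCF-10A EV and 4.60 ± 0.506 in PBS (SD, n = 3 each), a log2 change of 1.00 ± 0.44 against PBS without overlap, and 0.61 without MDA-MB-231 EV replicate 1. Fgfr4, its partner receptor, had 0.43 ± 0.58 for MDA-MB-231 EV relative to MCF-10A EV, and -0.038 without MDA-MB-231 EV replicate 3. Ptpn11, a phosphatase of receptor signalling, had 0.81 ± 0.50 for MDA-MB-231 EV against PBS, and 0.41 without MDA-MB-231 EV replicate 1. Sdc1, a heparan sulphate proteoglycan, had 0.59 ± 0.65 for MCF-10A EV against PBS, and 0.11 without MCF-10A EV replicate 1.

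Markers of other cells varied between libraries as well. Summed cholangiocyte markers were 28.0 to 46.6 TPM in MDA-MB-231 EV, 67.4 to 130 TPM in MCF-10A EV and 26.0 to 127 TPM in PBS libraries, with Krt7, Epcam, Sox9 and Cftr among those below the filter. Most of each sum was Spp1, at 19.96 to 125 TPM, while Krt19 and Muc1 overlapped between MDA-MB-231 EV and MCF-10A EV libraries. Kupffer cell markers summed to 484 to 652, 238 to 1564 and 254 to 522 TPM in MDA-MB-231 EV, MCF-10A EV and PBS libraries. The 1564 TPM came from MCF-10A EV replicate 1, where these markers split. Marco (804 TPM), Cd5l (422 TPM), Adgre1, C1qa and Timd4 were highest there. Folr2 and Clec4f were lowest there, Clec4f at 0.61 TPM against at least 96.45 TPM in every other library. Sinusoidal markers summed to 144 to 351, 121 to 174 and 139 to 302 TPM, and stellate cell markers to 102 to 319, 61.2 to 107 and 105 to 166 TPM in MDA-MB-231 EV, MCF-10A EV and PBS libraries. Fat cell markers summed to 63.5 to 376, 33.3 to 372 and 232 to 814 TPM, of which Car3, a gene that liver also expresses, gave 14.95 to 534 TPM, and intestinal markers to 106 to 185, 49.3 to 89.8 and 76.4 to 117 TPM, with Cdx2 at 0 throughout and Fabp6 at 0 in 8 libraries. Clock genes, which are known to set the daily rhythm of Cyp7a1, summed to 137 to 510, 168 to 286 and 225 to 444 TPM. No gene of these lists passed in any comparison by limma, and their part in the values of the bile acid genes was not tested.

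The genes most like each member were sought among 11200 tested genes by Pearson's r of log2(TPM + 1) over the 9 libraries, as a description over libraries whose depth is unknown. Cyp7a1 was followed most closely by Fkbp4 (r = 0.94), Hspa8 (0.90), Mettl7b (0.89), Ly6a (0.89) and Mrpl55 (0.88). The closest genes were Fabp2 for Cyp8b1 (r = 0.94), Atraid for Cyp27a1 (0.97), Paqr3 for Cyp7b1 (0.92), Ftcd for Baat (0.99), Dhrs4 for Slc10a1 (0.99), Gnas for Abcb11 (0.98), Dcaf6 for Abcb4 (0.98) and Itfg2 for Nr0b2 (0.95). The number of genes with r above 0.9 was 627 for Nr1h4, 437 for Slc10a1 and 293 for Baat, but 2 each for Cyp7a1 and Cyp7b1. Nr1h4 and Baat were both highest in MDA-MB-231 EV replicate 3 and PBS replicate 1. Slc10a1 stood at 623 TPM in MDA-MB-231 EV replicate 1, against 277 TPM in the next library. Such libraries weigh heavily on r over 9 libraries, and the counts without them were not computed, so they are no measure of shared control.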

How the data were processed

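Liver RNA-seq libraries used 1 µg of total RNA and a TruSeq kit, per the labels' protocols. The authors deposited TPM per feature. HISAT2, StringTie, RSEM and the build GRCm39 are named in the submitters' processing notes, without versions or order. The labels do not say whether counting used strand. TPM holds no depth, so no counting interval or floor was computed.

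The 10 members were taken by symbol. The members, the wider gene lists and the libraries left out as standing apart were chosen with earlier results of these data known. The fit covered 12860 Ensembl features whose mean was at least 1 TPM. It used limma 3.58.1 (R 4.3.3) on log2(TPM + 1), with 1 mean per group over all 9 libraries and a trended prior variance. Assembled loci were left out because they are at 0 in the MCF-10A EV columns. Benjamini-Hochberg adjustment ran over all tested genes of a comparison, and calls were made at an adjusted p under 0.05. The fit was tested on simulated data. Ratios and correlations used exact two-sided permutation tests. No 2 libraries had identical TPM for more than 2.91% of tested genes, so all 9 were kept as separate.

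Named genes were the 10 members, the 2 genes with the smallest p per comparison in each wider list, the gene most like each member and the 5 most like Cyp7a1. Some genes that this rule or the marker lists name are not reported here. Alternatives were another pseudocount, filter, scaling, array weights, a fit on the compared groups alone, a replicate block and each library left out in turn. As a check of pairing, deviations of same-numbered libraries from their group means correlated at 0.34, 0.11 and 0.44 between MDA-MB-231 EV and MCF-10A EV, all above 0.1, so those numbers were treated as pairs. This pairing comes from the data, not the labels. The other 2 comparisons did not meet the rule, though replicate 2 of MDA-MB-231 EV and PBS correlated at 0.50, the highest of the 9 values. Of the 9 libraries, 5 were most like a library of their own number in another group, so the pairing is uncertain.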

Additional observations from a re-analysis of the deposited data

Results flagged for a closer look

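Loci assembled from the reads, which carry no gene name and entered none of the comparisons, held 5.70% of the TPM of MDA-MB-231 EV replicate 3, above the highest PBS library, PBS replicate 1, at 3.02%. MDA-MB-231 EV replicates 1 and 2 were at 1.26% and 1.21%. In MCF-10A EV replicates 1, 2 and 3 these loci are listed at 0. The totals of those columns, 979351, 946777 and 934986 TPM, are below those of the other libraries. The share of these loci in the MCF-10A EV group is therefore unknown. In MDA-MB-231 EV replicate 3, Cyp27a1, Baat, Nr1h4 and Nr0b2 had their highest levels and Cyp7a1 and Cyp8b1 their lowest. Whether the share of these loci bears on those levels was not tested.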

How the results depend on the processing

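The 10 genes in 3 comparisons gave 30 log2 changes and 580 values under the alternatives. Of these, 535 kept their direction, 45 did not, and 1 passed the threshold, Cyp7b1 in MCF-10A EV against PBS with array weights (-0.90, adjusted p = 0.0357), the 1 of 10 members called in a fit that called 548 genes, 4.26% of those tested. Leaving out MDA-MB-231 EV replicate 3 together with PBS replicate 1, and the block within the MDA-MB-231 EV and MCF-10A EV libraries, the paired test of ratios and the leave-outs of wider pathway genes, were chosen after seeing the data. In all of these the cause of a shift was not tested.

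All genes called between MDA-MB-231 EV and PBS numbered 0, and 0 to 24 with 1 library left out, 5 without MDA-MB-231 EV replicate 3 and 24 without PBS replicate 1, and 28 without both. Between MDA-MB-231 EV and MCF-10A EV the 28 calls became 11 with no filter, 17 with a filter at 5 TPM, 46 with array weights and 17 with those groups alone. The replicate block gave 15 calls, and 12 with those groups alone. With 1 library left out the count was 13, without MCF-10A EV replicate 3, to 31, without MDA-MB-231 EV replicate 3. Between MCF-10A EV and PBS the 25 calls became 40 with a pseudocount of 0.1, 12 with no filter, 548 with array weights, 66 with those groups alone and 85 without both libraries that stand apart. With 1 left out they ranged between 14, without MCF-10A EV replicate 3, and 59, without MDA-MB-231 EV replicate 3. The block gave 0 calls between MDA-MB-231 EV and PBS and 20 between MCF-10A EV and PBS, and it changed the call of no member.

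Directions turned as follows. For MDA-MB-231 EV against PBS, Cyp7a1 was 0.26 without both libraries that stand apart, Cyp8b1 was -0.025 after rescaling without mitochondrially encoded genes and -0.15 after quantile normalization, and quantile normalization gave -0.10 for Baat and -0.017 for Nr1h4. The median of all genes in that comparison was 0.21, and 0.10 and 0.04 under those scalings. For MDA-MB-231 EV relative to MCF-10A EV, leaving out both libraries gave 0.57 for Cyp7a1, -0.027 for Nr1h4 and -0.26 for Nr0b2. For MCF-10A EV against PBS, array weights gave -0.28 for Cyp7a1, 0.18 for Cyp27a1, -0.56 for Slc10a1 and 0.30 for Nr1h4. Leaving out both libraries gave -0.31 for Cyp7a1, 0.059 for Cyp27a1, -0.23 for Slc10a1, 0.18 for Abcb11 and 0.26 for Nr1h4, and rescaling without mitochondrially encoded genes gave -0.071 for Cyp7a1.

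With 1 library left out, log2 changes for MDA-MB-231 EV against PBS ranged between -0.74 and 0.60 (Cyp7a1), -0.51 and 1.13 (Cyp8b1), -0.071 and 0.44 (Baat), -0.35 and 0.83 (Nr1h4) and -1.11 and 0.22 (Nr0b2). For MDA-MB-231 EV relative to MCF-10A EV they ranged between -0.77 and 0.57 (Cyp7a1), -0.062 and 1.53 (Cyp8b1), -1.03 and 0.039 (Abcb11), -0.027 and 1.09 (Nr1h4) and -0.26 and 1.07 (Nr0b2). For MCF-10A EV against PBS they ranged between -0.31 and 0.40 (Cyp7a1), -1.01 and 0.042 (Cyp8b1), -0.51 and 0.059 (Cyp27a1), -0.23 and 0.60 (Slc10a1), -0.78 and 0.18 (Abcb11) and -0.71 and 0.26 (Nr1h4). The other 14 results, Cyp27a1, Cyp7b1, Slc10a1, Abcb11 and Abcb4 against PBS and Cyp27a1, Cyp7b1, Baat, Slc10a1 and Abcb4 relative to MCF-10A EV, both in MDA-MB-231 EV, and Cyp7b1, Baat, Abcb4 and Nr0b2 in MCF-10A EV against PBS, kept their direction under all alternatives run. With 1 library left out, Slc10a1 ranged between 0.68 and 1.995 and Abcb11 between -1.27 and -0.20 in MDA-MB-231 EV against PBS, and Slc10a1 between 0.42 and 1.73 relative to MCF-10A EV. Cyp7b1 ranged between -0.73 and -0.20 and between 0.25 and 0.78 in those comparisons, Baat between 0.24 and 0.75 in the second, and in MCF-10A EV against PBS Baat ranged between -0.52 and -0.056 and Abcb4 between -0.88 and -0.036. With 3 libraries a group and unknown depth, a change whose 95% interval holds 0 could not be told from no change. The intervals carry no adjustment for the number of genes. Members whose interval lay off 0 did not pass the adjusted threshold in the main fit.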
